A study of Mus musculus with 2 samples.

Results

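The 46 genes described here encode ligands and receptors of axon guidance and were taken from a list of names: 8 ephrins, 14 Eph receptors, 6 Slit and Robo genes, 7 genes of the netrin system and 11 neuropilins and plexins. All 46 were matched by symbol among 21938 protein-coding genes. Open chromatin was measured by DNase-seq, which reads where the enzyme DNase I can cut DNA in nuclei. The cells were MN1, a mouse line that was immortalized, of strain B6NCrl. There was 1 group with 2 biological replicates, replicate 1 and replicate 2, with 1 library each. The labels give age and developmental stage as unknown and sex as not collected, and they name no tissue and no treatment. No second condition was sampled, so the guidance genes were set against all protein-coding genes in the same 2 libraries, with no test, since genes are not replicates.

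Axon guidance cues steer growing nerve fibres by binding receptors on the growth cone, whose signals reshape its actin skeleton. Ephrins and Eph receptors act between touching cells, with A-type ephrins held by a lipid anchor and B-type ephrins spanning the membrane. Slits, netrins and class 3 semaphorins are instead secreted. Slits bind Robo receptors, netrins bind Dcc and the Unc5 receptors, and semaphorins bind plexins, often with a neuropilin as partner.

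Replicate 1 held 170600 distinct peaks and 140519 hotspots, and replicate 2 held 162983 peaks and 135294 hotspots. A peak is a 150 bp stretch of strongest cutting and a hotspot the wider region of raised cutting round it. Promoters were open in both libraries at 6 of 6 neuronal marker genes and at 1 of 6 markers of other tissues, against 59.2% of all protein-coding genes. Of the markers of other tissues 5 had promoters poor in CpG (ratio under 0.35, defined below), as had 1 of the neuronal markers. Among all genes with such promoters 22.3% were open. The 2 lists thus differ in promoter class, and no cell type is read from them. Read depth is unknown, replicate 2 was run on 2 sequencer models per its labels, and no model is named for replicate 1. The files hold no expression values, so a promoter peak says only that the DNA was open. Coordinates are on mm10.

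A promoter peak was found in both libraries for 30 of the 46 guidance genes (65.2%), against 59.2% of all protein-coding genes. A promoter peak is a peak that overlaps the region within 1 kb of any annotated start site of the gene. A gene with one in both libraries is called open here, and a gene with none in either library closed. This share lay close to that of all genes, and the families differed far more among themselves. A promoter peak was present in both libraries for 10 of 11 neuropilins and plexins and for 7 of 8 ephrins. It was present for 7 of 14 Eph receptors, 3 of 6 Slit and Robo genes and 3 of 7 genes of the netrin system. By role, 9 of 13 ligands and 21 of 33 receptors had one. A promoter peak in replicate 1 alone was found at 0 guidance genes and in replicate 2 alone at 1, the netrin gene Ntn4. The same 30 genes had a promoter hotspot in both libraries (65.2%, against 59.4% of all genes).

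**Figure D1:**
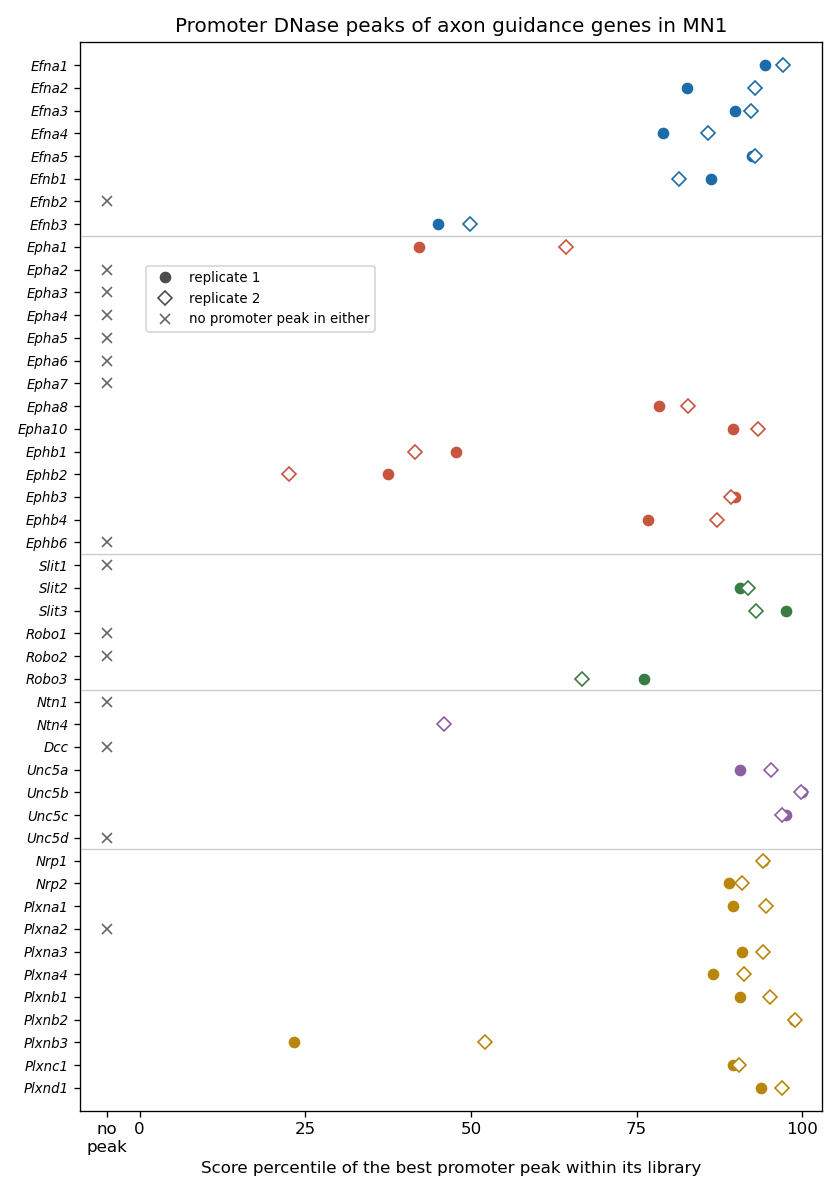
Score percentile (x axis) of the best promoter peak of each of the 46 guidance genes (y axis, grouped and coloured by family) within the peak list of its own library, with filled circles for replicate 1, open diamonds for replicate 2 and crosses for genes with no promoter peak in either. The 15 genes marked by crosses include 7 Eph receptors, and Ntn4 has a diamond only.

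The strongest guidance promoters belonged to receptors. Peaks carry a score made by the authors, which was turned into a percentile rank within each library's own list, 100 being the highest. Unc5b, a netrin receptor, had its best promoter peak at percentile 100 in replicate 1 and at 99.9 in replicate 2, at chr10:60831476-60831625, with its centre 31 bp inside the outermost start site. Plxnb2, a plexin for class 4 semaphorins, reached 98.8 in replicate 1 and 98.9 in replicate 2 at chr15:89180716-89180865, across its start site. Both peaks lay at one and the same position in the 2 libraries, and both overlapped annotated exon sequence. Unc5c, another netrin receptor, reached 97.6 in replicate 1 at chr3:141464796-141464945 and 96.9 in replicate 2 at chr3:141465336-141465485, so its best peak differed in place between libraries. Unc5a reached 90.6 in replicate 1, upstream of its start, and 95.3 in replicate 2, across it. All 3 Unc5 genes with an open promoter thus ranked above percentile 90 in both libraries, whereas Unc5d and Dcc, the attraction receptor for netrin, had no promoter peak in either library.

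A set of 4 promoter peaks of high rank that overlap no annotated exon is printed, on the plus strand, to show what opened: those of Unc5c, of Slit3 at an internal start site, of Unc5a and of the ephrin gene Efna5. Capitals mark matches, on either strand, to the SP/KLF letters GGGCGG or the NFY letters CCAAT. They lie at chr3:141464796-141464945, chr11:35544256-35544405, chr13:54949196-54949345 and chr17:62880776-62880925.
Unc5c: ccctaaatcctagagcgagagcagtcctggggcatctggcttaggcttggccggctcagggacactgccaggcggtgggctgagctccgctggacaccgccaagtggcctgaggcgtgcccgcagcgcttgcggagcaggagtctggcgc
Slit3: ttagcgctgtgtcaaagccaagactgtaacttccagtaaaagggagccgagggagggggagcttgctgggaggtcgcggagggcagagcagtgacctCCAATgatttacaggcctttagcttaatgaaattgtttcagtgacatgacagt
Unc5a: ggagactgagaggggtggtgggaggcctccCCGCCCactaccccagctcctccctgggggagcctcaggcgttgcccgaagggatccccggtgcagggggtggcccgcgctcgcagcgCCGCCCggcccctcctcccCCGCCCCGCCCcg
Efna5: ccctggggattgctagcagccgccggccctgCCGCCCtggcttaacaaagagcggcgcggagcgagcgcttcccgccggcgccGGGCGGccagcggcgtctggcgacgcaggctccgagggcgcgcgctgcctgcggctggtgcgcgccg
The Unc5a and Efna5 peaks each held 78.7% G and C, with SP/KLF matches. The Slit3 peak held 50.7% G and C, with 1 NFY match and 4 CpG. The Unc5c peak held 10 CpG and none of the searched motifs.

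Among neuropilins and plexins, the open set covered both neuropilins and 8 of 9 plexins. Plxnd1, the plexin bound by Sema3e, had its best promoter peak at percentile 93.8 in replicate 1 (chr6:115994976-115995125) and 96.9 in replicate 2 (chr6:115994916-115995065). Nrp1, the neuropilin that binds Sema3a and also VEGF, reached 94.1 in replicate 1 (chr8:128359016-128359165) and 94.1 in replicate 2 (chr8:128358956-128359105), within a promoter hotspot of 4348 bp and 4074 bp. The partner of class 3 semaphorins Nrp2 gave 88.9 and 90.9. Plxna1, Plxna3 and Plxna4, the plexins that pair with neuropilins, ranged from 86.6 to 90.9 in replicate 1 and from 91.2 to 94.6 in replicate 2, while Plxna2 had no promoter peak in either library. Plxnb1 gave 90.6 and 95.1, and Plxnc1, the receptor of Sema7a, gave 89.6 and 90.4. Plxnb3 stood apart from its family at 23.3 in replicate 1 and 52.1 in replicate 2, at an internal start site 8440 bp from the outermost one. Within 1 kb of the outermost Plxnb3 start the best peak ranked at 11.6 in replicate 1 and 24.7 in replicate 2.

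Among ephrins, all 5 A-type genes were open. Efna1 led, with percentile 94.4 in replicate 1 (chr3:89279616-89279765) and 97.1 in replicate 2 (chr3:89279576-89279725), at an internal start site 1452 bp and 1492 bp from the outermost one. Efna5, a ligand known for mapping retinal axons, reached 92.4 and 92.9, and Efna3 reached 89.9 (chr3:89320696-89320845) and 92.3 (chr3:89320756-89320905). These Efna3 peaks were centred 861 bp and 801 bp inside the nearest start site. Across its outermost start Efna3 gave 79.5 in replicate 1 and 86.5 in replicate 2. Efna2 gave 82.6 and 92.9, and Efna4 gave 79.0 and 85.8. The B-type ephrins were mixed. Efnb1 gave 86.2 in replicate 1 and 81.4 in replicate 2. Efnb3 gave 45.0 and 49.8 from 1 peak in each library, centred 815 bp inside the start site. Efnb2, the ligand of Ephb4, had no promoter peak in either library.

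Of the A-type Eph receptors 3 of 9 were open, and of the B-type receptors 4 of 5, against 59.2% of all protein-coding genes. Epha1, Ephb1 and Ephb2 were no longer open among peaks above each list's median score, so the class difference rests partly on weak peaks. The median gene length was 148 kb in the A-type and 28.6 kb in the B-type class. Epha10, which lacks kinase activity, ranked highest by the mean of the 2 libraries, at 89.6 in replicate 1 (chr4:124881636-124881785) and 93.4 in replicate 2 (chr4:124881676-124881825). Its best peaks were centred 811 bp and 851 bp inside the start site. The Epha10 peaks across the start itself ranked at 49.0 in replicate 1 and 39.8 in replicate 2. Ephb3 followed at 89.9 (chr16:21210996-21211145) and 89.2 (chr16:21211036-21211185), at start sites inside the gene, since its outermost start site had no peak in both libraries. Ephb4, known for its role in separating arteries from veins, gave 76.7 and 87.2 at chr5:137349996-137350145 in both libraries. Epha8 gave 78.4 and 82.7. The remaining 3 were weak: Epha1 gave 42.1 and 64.4, Ephb1 gave 47.7 and 41.5, and Ephb2 gave 37.5 and 22.6. The promoter hotspots of Ephb2 were near the lower end of the deposited −log10 q-values, at 3.92 in replicate 1 and 2.61 in replicate 2, where the lists begin at 1.30. No promoter peak was found in either library for Epha2, Epha3, Epha4, Epha5, Epha6, Epha7 or Ephb6. Epha4 is the receptor that guides limb motor axons away from ephrin-A, and Ephb6 lacks kinase activity.

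In the Slit and Robo group, Slit2 and Slit3 were open and Slit1 was not. Slit3 reached 97.6 in replicate 1 and 93.1 in replicate 2, but not at its first start site. Its best peaks, at chr11:35544256-35544405 and chr11:35544516-35544665, lay about 423 kb inside the gene, at an internal start site. Within 1 kb of the outermost Slit3 start the best peak ranked at 84.9 in replicate 1 and 69.4 in replicate 2. Both of these peaks were centred upstream, close to the 1 kb limit. Nearer to that start, the peaks ranked at 21.4 and 32.4 in replicate 1 and at 5.60 in replicate 2. Slit2 reached 90.6 and 91.8 at chr5:47983036-47983185 in both libraries, just upstream of its outermost start. Of the receptors only Robo3, which lets commissural axons cross the midline, had a peak within 1 kb of a start site in both libraries, at 76.1 (chr9:37430676-37430825) and 66.7 (chr9:37430696-37430845), and at an internal start. Robo1 and Robo2 had none in either.

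Neither of the 2 netrin ligands in the set was open in both libraries. Ntn1 had no promoter peak in either library. Ntn4, a laminin-like netrin, had 2 promoter peaks in replicate 2, the better one at percentile 45.9, inside a hotspot of 719 bp with a −log10 q-value of 4.47, and none in replicate 1. Of the 7 netrin-system genes in the set, those open in both libraries were the receptors Unc5a, Unc5b and Unc5c.

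Over the 30 open guidance genes, the best promoter peak had a median percentile of 89.6 in replicate 1 and 92.0 in replicate 2, against 95.5 and 95.3 over the 12990 genes open in both libraries. A percentile above 90 in both libraries was held by 12 of the 30, against 70.2% of all open genes. Guidance promoters, where open, thus ranked lower than open promoters in general. The 2 libraries ordered the 30 genes much alike (Spearman's rho 0.90 across genes, which are not independent), and the best peaks of the 2 libraries overlapped in 26 of 30. Of the 208 annotated start sites of the 46 genes, 77 had a peak within 1 kb in both libraries (37.0%), against 51.8% of the start sites of all protein-coding genes. At 14 of the 30 open guidance genes every start site did (46.7%), against 39.5% of all open genes.

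Of the 15 closed guidance genes, 9 had CpG-rich promoters, 4 lay in the middle class and 2, Robo1 and Plxna2, were CpG-poor. The ratio of observed to expected CpG was taken within 500 bp of the outermost start site, and promoters with 0.65 or more, which resemble CpG islands, are as a rule open in most cell types. Of the guidance genes 19 of 29 with such promoters were open in both libraries (65.5%), against 88.8% of all genes of that class. In the class from 0.35 to 0.65, 9 of 13 guidance genes were open, against 66.0% of all genes. Below 0.35, 2 of 4 were open, against 22.3%. Only in the CpG-rich class did the guidance genes thus fall below the share of all genes. In that class 9 were open in neither library: Efnb2, Epha2, Epha3, Epha4, Epha5, Epha7, Ephb6, Slit1 and Unc5d. Ntn4, with a ratio of 0.66, had a peak in replicate 2 alone.

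The 200 bases directly upstream of the outermost start site are printed for 2 genes with a promoter peak in both libraries and 3 with none. They are on the gene's own strand, with every CG in capitals. The genes were picked from the CpG-rich class by highest CpG ratio, so their richness in CpG follows from the choice. Stretches that overlap an annotated exon were passed over, and Plxna1, which also qualified, is not printed. Those with a peak are Unc5b (chr10:60831582-60831781, minus strand) and Plxnc1 (chr10:94944836-94945035, minus strand).
Unc5b: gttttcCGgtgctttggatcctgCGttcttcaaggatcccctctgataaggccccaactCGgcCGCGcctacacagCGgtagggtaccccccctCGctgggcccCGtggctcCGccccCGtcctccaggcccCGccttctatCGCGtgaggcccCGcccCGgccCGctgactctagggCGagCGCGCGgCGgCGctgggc
Plxnc1: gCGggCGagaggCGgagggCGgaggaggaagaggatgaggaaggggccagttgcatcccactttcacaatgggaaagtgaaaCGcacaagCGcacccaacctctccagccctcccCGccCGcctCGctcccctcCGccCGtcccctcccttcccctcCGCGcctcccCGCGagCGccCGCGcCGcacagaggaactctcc
Those with none are Efnb2 (chr8:8661243-8661442, minus strand), Unc5d (chr8:29219637-29219836, minus strand) and Epha7 (chr4:28812931-28813130, plus strand).
Efnb2: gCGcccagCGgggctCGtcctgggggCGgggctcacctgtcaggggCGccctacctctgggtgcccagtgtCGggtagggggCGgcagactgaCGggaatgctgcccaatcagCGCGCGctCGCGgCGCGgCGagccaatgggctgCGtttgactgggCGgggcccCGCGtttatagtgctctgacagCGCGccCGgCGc
Unc5d: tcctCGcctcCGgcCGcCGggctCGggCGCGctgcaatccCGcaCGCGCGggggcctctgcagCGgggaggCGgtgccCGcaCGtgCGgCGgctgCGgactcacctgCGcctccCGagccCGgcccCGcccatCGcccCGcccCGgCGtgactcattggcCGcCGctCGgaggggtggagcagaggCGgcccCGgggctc
Epha7: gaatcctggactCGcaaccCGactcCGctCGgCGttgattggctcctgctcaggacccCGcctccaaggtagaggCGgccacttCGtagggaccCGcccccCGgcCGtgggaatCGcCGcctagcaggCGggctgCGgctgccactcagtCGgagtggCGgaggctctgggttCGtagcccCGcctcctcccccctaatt
These stretches held 22 and 19 CpG in Unc5b and Plxnc1, and 24, 31 and 19 in Efnb2, Unc5d and Epha7. Over the CpG-rich guidance genes the median was 22.0 for the 19 with a peak in both libraries (6 to 38) and 18 for the 9 with a peak in neither (9 to 31), against 16 over all 8922 CpG-rich protein-coding genes.

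Guidance genes without a promoter peak were mostly long genes. Of those of 100 kb or longer 10 of 23 had a promoter peak in both libraries (43.5%), against 65.0% of all genes that long. Of the shorter ones 20 of 23 did (87.0%), against 58.5% of all shorter genes. Among genes that were both long and CpG-rich, the counts were 9 of 16 guidance genes (56.2%), against 77.5% of all such genes. The 15 genes open in neither library had a median length of 199 kb and the 30 open ones 32.7 kb, whereas over all genes the medians were 9.23 kb for the closed and 23.5 kb for the open. Dcc (1097 kb), Epha6 (952 kb), Robo1 (738 kb), Unc5d (573 kb) and Robo2 (520 kb) were all closed, while Slit3 (587 kb), Plxna4 (444 kb), Ephb1 (433 kb), Unc5c (370 kb) and Slit2 (325 kb) were open. The length limit was chosen after the values were seen.

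**Figure D2:**
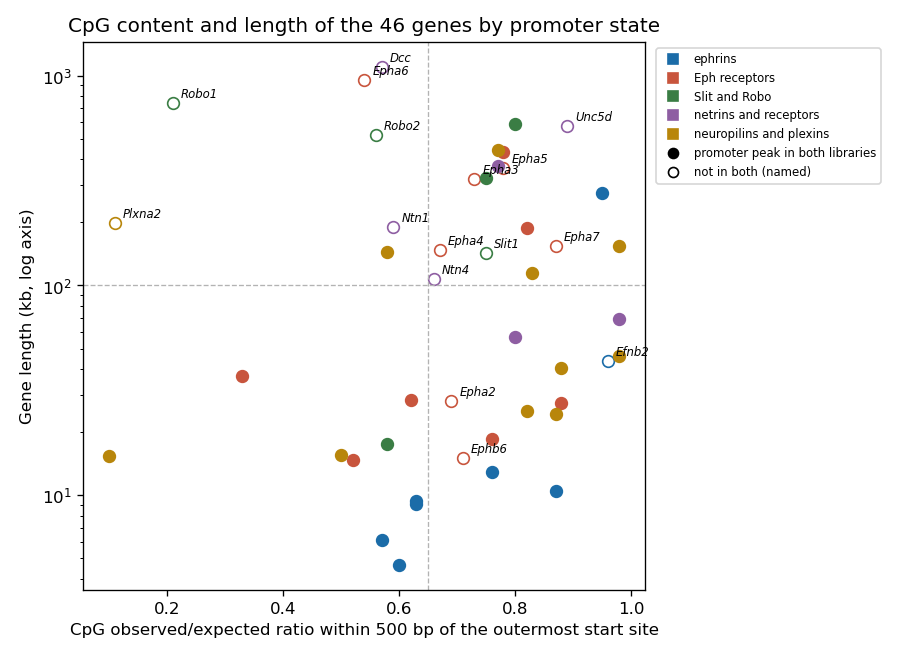
CpG observed/expected ratio within 500 bp of the outermost start site (x axis) against gene length in kb (y axis, log scale) for the 46 guidance genes, coloured by family, with filled circles for a promoter peak in both libraries and named open circles for the others. Of the 23 genes above the dashed line at 100 kb 13 are open circles, and 10 open circles lie right of the dashed line at a ratio of 0.65.

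**Figure D3:**
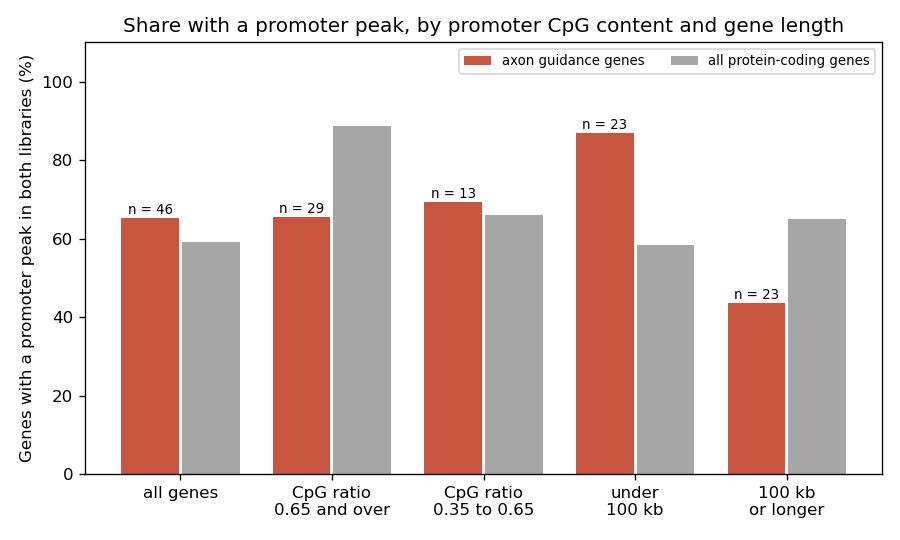
Share of genes with a promoter peak in both libraries (y axis, percent), for the guidance genes (red, with their number) and all protein-coding genes (grey): all of them, in 2 classes of CpG ratio and in 2 classes of gene length. The red bar is lower than the grey one for CpG-rich genes (65.5% and 88.8%) and long genes (43.5% and 65.0%) and higher for shorter genes (87.0% and 58.5%).

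Away from promoters, the guidance genes had 355 distal peaks shared by the libraries. A distal peak has its centre within 50 kb of the outermost start site of the gene and over 1 kb from any start site of a protein-coding gene, and it is shared if peaks of both libraries overlap. The median was 6.50 shared distal peaks per guidance gene, against 4 over all protein-coding genes. The spread was wide: 13 guidance genes had none, and 6 had 20 or more (13.0%, against 2.83% of all genes). At least 1 shared distal peak was found at 33 of 46 (71.7%), against 77.6% of all genes. Genes with no shared distal peak made up 28.3% of the guidance genes and 22.4% of all genes. That order turned within 25 kb (30.4% and 32.5%) and among peaks above the median score (30.4% and 35.2%). The limit of 20 was chosen after the values were seen. The libraries ordered the 46 genes alike by their number of distal peaks (Spearman's rho 0.96 across genes).

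**Figure D4:**
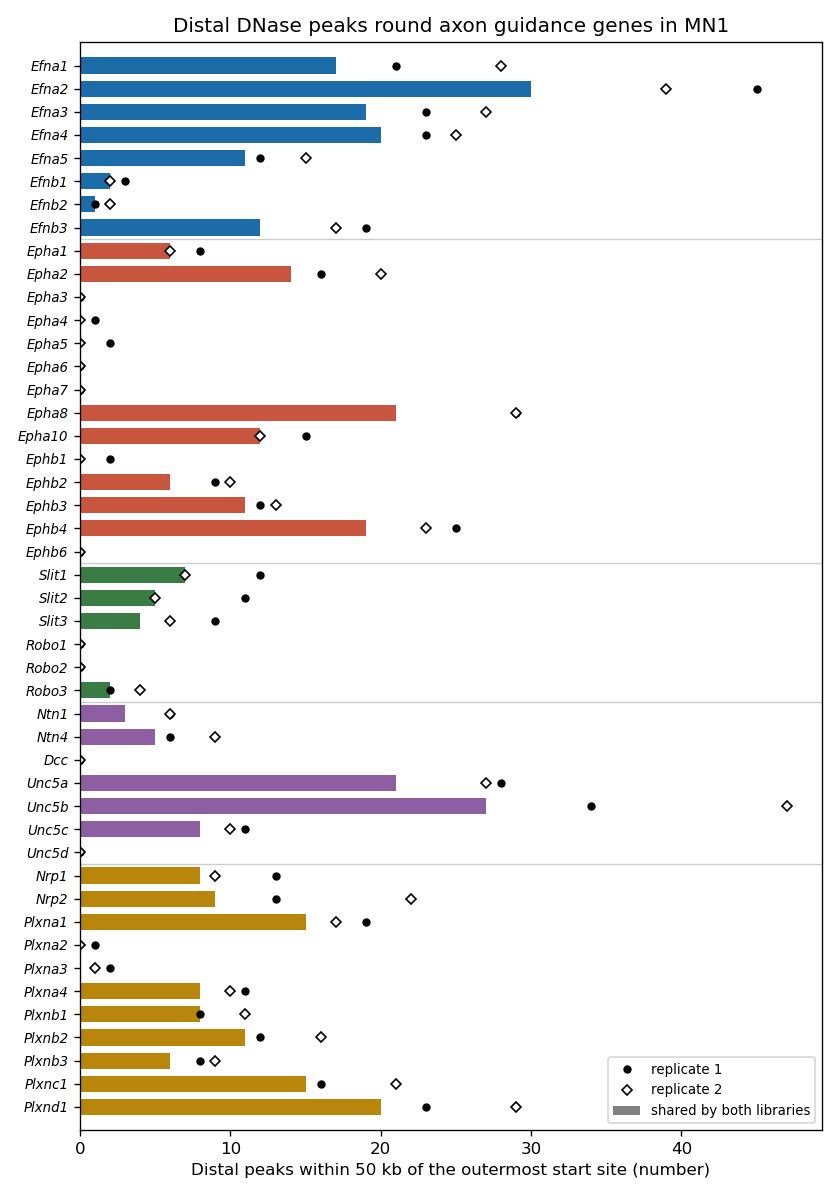
Number of distal peaks within 50 kb of the outermost start site (x axis) for each of the 46 guidance genes (y axis, grouped and coloured by family), with bars for peaks shared by both libraries, filled circles for all distal peaks of replicate 1 and open diamonds for those of replicate 2. Efna2 and Unc5b have the longest bars, 30 and 27, and 13 genes have no bar.

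Efna2 had the most, with 45 distal peaks in replicate 1, 39 in replicate 2 and 30 shared. Of these 25 lay upstream and none lay in Efna2 itself, and 6 other protein-coding genes start within 50 kb, so these peaks cannot be assigned to Efna2. Unc5b had 34 distal peaks in replicate 1, 47 in replicate 2 and 27 shared. In contrast to Efna2, 24 of the 27 lay in introns of Unc5b, with no other protein-coding start within 50 kb. Unc5a had 28 in replicate 1, 27 in replicate 2 and 21 shared, of which 12 lay in its introns. Epha8 had 29 in each library and 21 shared, 5 of them in its introns. Plxnd1 had 23 in replicate 1, 29 in replicate 2 and 20 shared, with 11 in its introns and 3 in its exons. Efna4, with 20 shared, Efna3, with 19, and Efna1, with 17, are neighbours on chromosome 3, and their windows overlap. Efna3 and Efna4, whose starts lie 15.1 kb apart, had 18 of these peaks in common. Ephb4 had 25 in replicate 1, 23 in replicate 2 and 19 shared. Plxna1 had 19 in replicate 1, 17 in replicate 2 and 15 shared, 12 of them in its introns, and Plxnc1 had 16, 21 and 15.

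The highest-ranked shared distal peak that overlaps no annotated exon is printed on the plus strand for the 6 genes with 20 or more, to show the elements behind these counts. Capitals mark matches, on either strand, to the CTCF motif, the SP/KLF letters GGGCGG, the NFY letters CCAAT, the E-box letters CAGCTG or the letters AGATAA of the factors called GATA. The Efna2 peak, at chr10:80159916-80160065 and 19.5 kb upstream, ranked at percentile 99.8 in replicate 1 and 99.6 in replicate 2. The Unc5b peak, at chr10:60816976-60817125 in an intron, ranked at 97.3 and 98.7. The others lie at chr4:136949716-136949865 in an Epha8 intron, chr13:54970696-54970845 in an Unc5a intron, chr3:89316956-89317105 in Efna3, next to Efna4, and chr6:115974056-115974205 in a Plxnd1 intron.
Efna2: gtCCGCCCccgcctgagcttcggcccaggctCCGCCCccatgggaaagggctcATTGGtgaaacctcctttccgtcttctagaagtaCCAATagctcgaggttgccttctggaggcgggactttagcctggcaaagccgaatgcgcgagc
Unc5b: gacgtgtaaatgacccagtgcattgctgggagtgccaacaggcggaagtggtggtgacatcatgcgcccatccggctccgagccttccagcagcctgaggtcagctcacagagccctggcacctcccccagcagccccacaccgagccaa
Epha8: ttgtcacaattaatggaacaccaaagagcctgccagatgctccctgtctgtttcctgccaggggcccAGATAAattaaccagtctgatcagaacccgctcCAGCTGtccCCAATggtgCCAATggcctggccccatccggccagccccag
Unc5a: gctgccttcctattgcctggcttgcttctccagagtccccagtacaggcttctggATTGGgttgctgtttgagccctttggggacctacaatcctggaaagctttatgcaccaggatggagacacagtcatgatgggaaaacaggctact
Efna4: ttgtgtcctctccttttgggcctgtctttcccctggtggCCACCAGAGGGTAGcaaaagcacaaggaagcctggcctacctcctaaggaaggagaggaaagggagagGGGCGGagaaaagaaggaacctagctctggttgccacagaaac
Plxnd1: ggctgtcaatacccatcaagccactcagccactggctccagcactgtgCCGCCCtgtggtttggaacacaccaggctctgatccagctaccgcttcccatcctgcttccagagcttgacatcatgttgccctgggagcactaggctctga
The Efna2 peak held 10 CpG with SP/KLF and NFY matches, and the Unc5a peak held no CpG and 1 NFY match. The Efna4 peak, 21 kb downstream of the Efna4 start and inside the neighbouring Efna3, held a CTCF match. The Unc5b peak held none of the searched motifs.

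Over all 355 shared distal peaks of guidance genes, 12.1% held the SP/KLF letters, against 6.31% of the 83240 shared peaks of the genome that lie over 1 kb from any protein-coding start. The E-box letters CAGCTG were in 71 of the 355 peaks, against 15.7% of those of the genome. Peaks with the AP-1 letters TGANTCA made up 11.3%, against 14.7%, and those with a CTCF match 3.10%, against 5.16%. The NFY letters CCAAT were in 18.6% of both sets, GATA letters AGATAA in 6.20%, against 8.41%, and homeodomain letters TAATTA in 3.38%, against 4.97%. The CRE letters TGACGTCA were in 0.282%, against 0.511%, and the NRF1 motif was in 0 of the 355, against 0.0517%. The median G and C content was 55.3% in the distal peaks of guidance genes, against 50.7%. Its part in the SP/KLF share was not tested. In the 89 shared promoter peaks of guidance genes, the ETS letters CCGGAAG were in 2.25%, against 7.25% of 30982 promoter peaks, and the NFY letters in 13.5%, against 20.1%. SP/KLF letters were in 32.6% of the promoter peaks, against 35.3%. Matches were counted on both strands of the 150 bp peak, and a match describes letters, not a bound factor.

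By place, 383 pairs of a guidance gene and a distal peak were counted, a peak in several windows counting once for each. Introns of the gene itself held 133 (34.7%), its exons 15, other genes 81 and intergenic sequence 154. Upstream peaks numbered 170 and downstream peaks 213. Distal peaks of guidance genes were also found in the other library more often than distal peaks in general. The shared part was 74.4% of those in replicate 1 and 72.6% of those in replicate 2, against 64.1% and 67.8% of all distal peaks. The 2 sets were not matched for distance to a start site, and the part of that distance in the difference was not tested.

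At the other end, 13 guidance genes had no shared distal peak: Epha3, Epha4, Epha5, Epha6, Epha7, Ephb1, Ephb6, Robo1, Robo2, Dcc, Unc5d, Plxna2 and Plxna3. For Epha3, Epha6, Epha7, Ephb6, Robo1, Robo2, Dcc and Unc5d, neither library had a distal peak of any kind (8 of 46, 17.4%, against 13.0% of all genes). All but Ephb1 and Plxna3 also lacked a promoter peak. Counted out to 200 kb, a distance chosen after the values were seen, 8 guidance genes (17.4%) had no shared peak at all round the outermost start: Epha3, Epha4, Epha6, Epha7, Robo1, Robo2, Unc5d and Plxna2. Over all genes that share was 9.43%, and the median was 30.0 peaks. Epha3, Epha7 and Robo2 had no peak of either library in these windows, and Unc5d had 4 in replicate 1 and none in replicate 2.

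**Figure D5:**
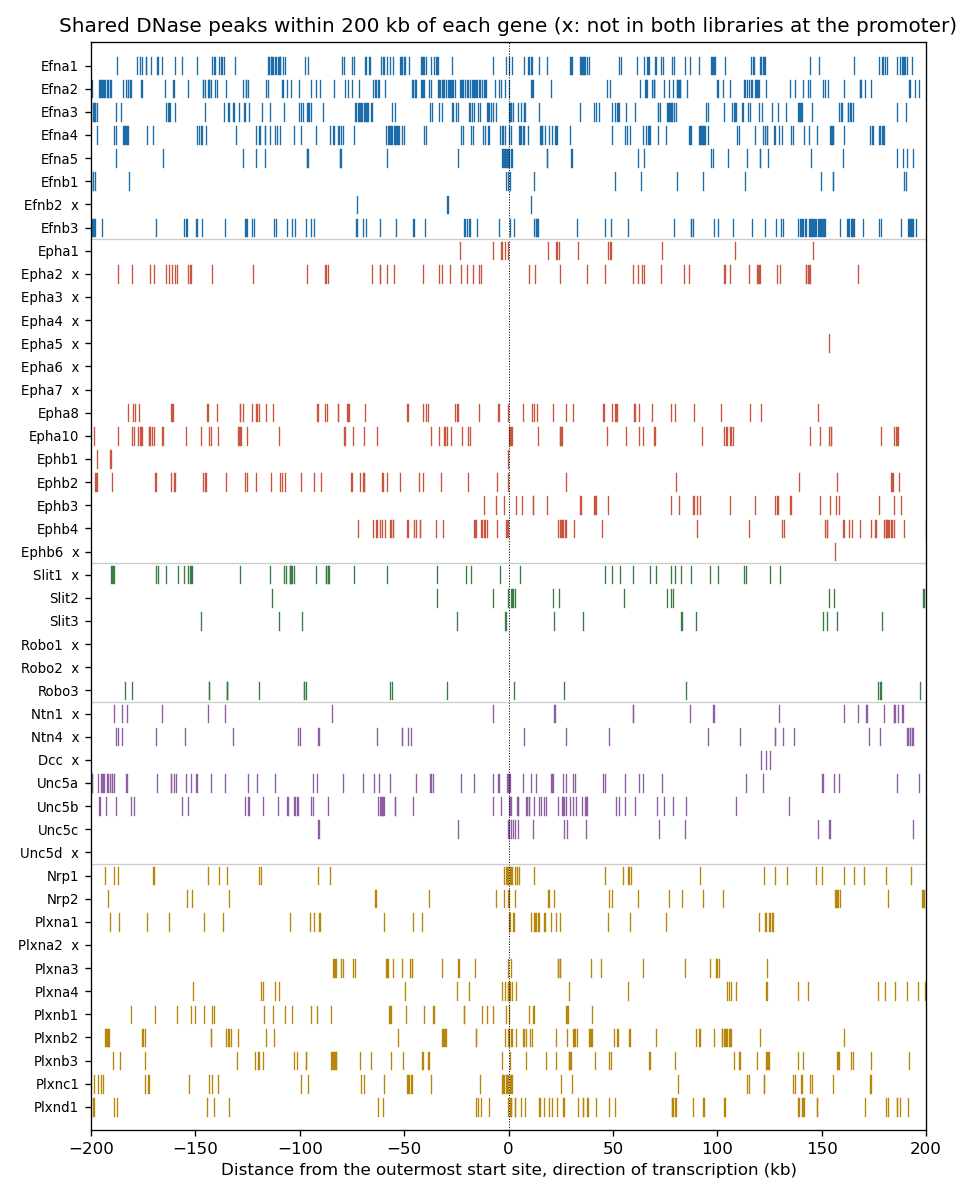
Position of every peak shared by both libraries (ticks) within 200 kb of the outermost start site, in kb along the direction of transcription (x axis), for each of the 46 guidance genes (y axis, coloured by family), with x after the name where no promoter peak was found in both libraries. The rows of 8 genes are empty, among them Epha3, Epha7, Robo2 and Unc5d, whereas that of Efna2 holds 171 ticks.

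The largest distances from a start site to the nearest shared peak were at 6 closed genes. The nearest shared peak was 1540 kb from the closest start site of Unc5d, 920 kb from that of Robo2, 884 kb from that of Epha3, 577 kb from that of Epha7, 322 kb from that of Epha6 and 296 kb from that of Epha4. At 10 guidance genes (21.7%) every start site was more than 50 kb from a shared peak, against 17.8% of all genes. Of these, Epha5 and Dcc each held 3 shared peaks farther inside the gene, and Epha6 held 1. The distance was larger than for closed genes in general. Guidance genes closed in both libraries had a median of 121 kb to the nearest shared peak, against 39.0 kb over all 8169 closed genes. For CpG-rich closed genes the medians were 142 kb over 9 guidance genes and 17.9 kb over 874 genes in all.

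Not all closed promoters lay in such empty stretches. Epha2, a receptor of ephrin-A1, had 16 distal peaks in replicate 1, 20 in replicate 2 and 14 shared, the nearest 2.36 kb from a start site. Slit1 had 12 in replicate 1, 7 in replicate 2 and 7 shared, the nearest 3.98 kb away. Ntn1 had 6 in each library and 3 shared, the nearest 7.53 kb away, and Efnb2 had 1 shared peak, 10.9 kb away. The nearest shared peak to a Robo1 start site was 1.34 kb away, just outside the promoter limit, but from a start site inside the gene. Round the outermost Robo1 start no shared peak lay within 200 kb. The promoter peak of the open gene Efnb3, at 815 bp, was just inside the limit. The closed genes Epha2, Slit1, Ntn1 and Efnb2 thus had shared distal peaks within 50 kb of the outermost start. In contrast, Epha3, Epha4, Epha6, Epha7, Robo2 and Unc5d had none there.

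Between the libraries, the number of distal peaks differed most at Unc5b, with 34 in replicate 1 and 47 in replicate 2. Nrp2 had 13 and 22, Efna1 had 21 and 28, and Plxnd1 had 23 and 29. Slit2, with 11 and 5, and Efna2, with 45 and 39, went the other way. Replicate 1 had more distal peaks at 19 guidance genes and replicate 2 at 17, with 10 equal, so neither library was higher throughout. With 1 library per replicate, sampling depth and biology cannot be told apart in these differences.

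Other genes of the pathway, listed from textbook knowledge, were open at 69 of 85. Of the intracellular effectors, which carry guidance signals to actin and microtubules, 43 of 47 had a promoter peak in both libraries. Those without one in either library were Dock1 and Pak3, while Dpysl4 was open in replicate 2 alone and Ngef in replicate 1 alone. Semaphorins, the ligands of plexins, were open at 14 of 20. Those closed in both libraries were Sema3a, Sema3c, Sema3d, Sema3e and Sema5a, and Sema5b had a peak of percentile 6.97 in replicate 2 alone. Of the class 3 semaphorins, Sema3b, Sema3f and Sema3g were open, at percentiles 84.9, 96.5 and 91.5 in replicate 1 and 85.0, 96.6 and 91.5 in replicate 2. Of the other cues and receptors 12 of 18 were open, and Robo4, Ntn5, Ntng1, Hfe2, Flrt1 and Flrt2 were closed in both. The open ones included the netrin Ntn3 (83.1 in replicate 1 and 89.5 in replicate 2) and the netrin receptors Neo1 (97.6 and 94.3) and Dscam (80.1 and 74.9). Effectors thus were open more often (91.5%) than the 46 ligands and receptors (65.2%) or all genes (59.2%). Semaphorins (70.0%) and the other cues and receptors (66.7%) lay nearer the share of all genes. Of the 47 effectors 33 were CpG-rich, and 31 of these were open, against 88.8% of all CpG-rich genes. The part of promoter class in the effectors' share was not tested.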

How the data were processed

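DNase-seq peaks and hotspots of 2 libraries of 1 cell line were used as deposited. Per the notes deposited with the files, each list was made from its library's own filtered reads, aligned to mm10, without pooling. For aligner, peak caller and threshold, the sources used here give no name or value. The authors gave each peak a score between 1 and 150 whose normalization is not stated, and it served here as a rank within its list. The deposited hotspots carry a q-value as −log10, from 1.30 up to a highest value of 100. Read depth is unknown, so no interval was computed.

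Repeated peak lines were removed. Peaks were set against GENCODE M21 start sites (21938 protein-coding genes on the 19 autosomes, X and Y; 93459 start sites) and GRCm38 sequence, the mm10 assembly, with Python 3.11.15, NumPy 2.4.6 and samtools 1.23.1. Promoters reached 1 kb from any start site, distal windows 50 kb from the outermost one, and shared peaks overlapped by 1 bp or more. The counting steps were tested on simulated peaks. Named for full values were the 3 genes per family with the highest mean percentile, the 10 with most shared distal peaks, all with none, and the 5 that differed most between libraries, ties kept. Members, lists and several thresholds were chosen with earlier results of these data known. Counts are descriptions: no p-value was computed, and nothing in the labels says how far the replicates were grown apart. Alternatives were other windows, overlaps, stricter scores, hotspots in place of peaks, and each library alone.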

Additional observations from a re-analysis of the deposited data

How the results depend on the processing

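Guidance genes with a peak at the promoter in each library numbered 30, a count that lay between 25 and 32 under the 7 alternatives run for promoter peaks. It was 28 with a 500 bp window (Efnb3 and Robo3 lost) or with the outermost start site only (Ephb3 and Robo3 lost), and 32 with a 2500 bp window (Epha2 and Robo1 gained). Among peaks above each list's median score it was 25, without Efnb3, Epha1, Ephb1, Ephb2 and Plxnb3, and the Eph receptors went to 4. Replicate 2 alone adds Ntn4. With hotspots only at the highest deposited −log10 q-value, the count was 23. The share over all genes moved to 57.6% (500 bp), 62.9% (2500 bp), 54.8% (outermost start), 56.0% (peaks above the median score), 59.4% (hotspots) and 60.9% to 61.1% (each library alone). The 355 shared distal peaks became 219 within 25 kb, 565 within 100 kb and 236 above the median score. Within 25 kb the Eph receptors had 46, Slit and Robo genes 11, the netrin system 35, and neuropilins and plexins 65. Within 100 kb the ephrins had 137, Slit and Robo genes 38, the netrin system 106, and neuropilins and plexins 152. Above the median score, the Eph receptors had 47 and Slit and Robo genes 11. Beyond 2500 bp from any coding start the ephrins had 50, and round any start site the Slit and Robo genes had 56. With each library alone, Slit and Robo genes had 22 to 34 distal peaks (34 in replicate 1, without replicate 2) and the netrin system 85 to 99 (99 in replicate 2, without replicate 1), against 18 and 64 shared. These changes follow from wider or narrower windows, fewer peaks or no need for sharing. Median distal peaks per guidance gene stayed above that of all genes under the 8 alternatives, the closest being 10.5 and 9 within 100 kb. No paired analysis was possible because there is only 1 group. The number of libraries and the unknown depth limit how far a missing peak can be read as closed DNA.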

Other observations

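Shared peaks along the whole gene body gave another order than promoters. Slit3, a secreted repellent, held 133 peaks in replicate 1, 102 in replicate 2 and 78 shared, more than any other of the 46 guidance genes. Plxna4 held 51 in replicate 1, 52 in replicate 2 and 38 shared, and Efna5 held 44, 50 and 36. Unc5b, although only 69.0 kb long, held 40, 49 and 31. Per 100 kb of gene the order was another: Slit3, 587 kb long, held 13.28 shared peaks and Unc5b 44.93, and the highest value was 99.26 at Efna3. Slit1 and Ntn1, with no promoter peak, held 17 and 19 shared peaks in their bodies, whereas Dcc held 3, Robo1 held 2 and Epha6 held 1, and Epha3, Epha4, Epha7, Robo2 and Unc5d held none. For guidance genes of 100 kb or longer the median was 3.75 shared peaks per 100 kb of gene, against 3.81 over all genes of that length.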
